A study of Homo sapiens with 17 samples.

Results

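The sites described here are the positions of paused RNA polymerase that lay beside a 5′ splice site, also called the splice donor, inside human protein-coding genes. A position was taken when it was within 50 bp either side of the last base of a non-terminal exon of a protein-coding transcript in GENCODE release 29 (GRCh38), on the same strand and on chromosomes 1 to 22. It also had to lie over 1000 bp downstream of the nearest upstream transcript start, so that promoter-proximal pausing was left out. A position that was also within 50 bp of a splice acceptor went to the nearer splice site, and 2 positions at equal distance from both were left out. No measured pausing time entered this choice. It gave 1210 distinct positions of 158141 in all, at 1059 donors of 857 genes. Sarkosyl replicate 1 listed 253 of them among 48566 rows, sarkosyl replicate 2 listed 328 among 47713, sarkosyl-free replicate 1 listed 489 among 66089 and sarkosyl-free replicate 2 listed 320 among 41769. Those counts are 0.521%, 0.687%, 0.740% and 0.766% of the rows.

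The study used TV-PRO-seq, in which engaged polymerases run on in permeabilised cells for several lengths of time and the 3′ ends of the labelled RNAs mark where they stood. The cells of all groups used here were HEK293, a line derived from human embryonic kidney. Run-on lasted 0.5, 2, 8 or 32 min in a buffer with sarkosyl or without it, each in 2 replicates, which makes 16 libraries. Sarkosyl, a detergent, removes most proteins bound to chromatin and leaves engaged polymerases able to elongate. The labels name no transgene, deletion or drug in these groups. Each buffer and replicate number had 1 table, whose pausing time at a site is a single value fitted over the run-on times, so the replicate error rests on 2 tables per buffer. The unit of that time is not stated. A further sample, labelled Trp treatment, came without a table here and is not analysed.

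The 5′ splice site is the junction where an exon ends and an intron begins. The intron almost always starts with GT, and the U1 small nuclear ribonucleoprotein recognises the junction by base pairing of its RNA with the end of the exon and the first bases of the intron. Splicing factors bind while the gene is still being transcribed, so that a polymerase just past an exon has the donor emerging behind it. Offsets below count from 0 at the last exon base, with negative values towards the exon and positive values into the intron.

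The following sites show how listed positions sit on the donor. In each line the listed base is in capitals and the rest in lower case. Sequences were read 5′ to 3′ in the direction of transcription from GENCODE release 29 transcripts on GRCh38, at donors where another transcript of the locus keeps the first intron bases in an exon. The first set was listed on the G that opens the intron, at offset 1, in CLTC (clathrin heavy chain), ASNS (asparagine synthetase) and ZNF567 (a zinc finger protein), 3 of the 5 such sites with sequence.
CLTC, chr17:59690702-59690731, plus strand: attgtttatgGtaatctctctctgtaacct
ASNS, chr7:97864239-97864268, minus strand: gaagctaaagGtaataataaatttttctat
ZNF567, chr19:36720552-36720581, plus strand: actcacacagGtgagaaaccctatgtttgt

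The second set was listed on the G at offset 5 of the intron, in XPC (a sensor of DNA damage), KXD1, HNRNPK (an RNA-binding protein), TMED2 (a carrier of the early secretory pathway) and ENOSF1, 5 of the 8 with sequence.
XPC, chr3:14164793-14164822, minus strand: attggtccatgtaaGtgatcctcccggatc
KXD1, chr19:18567169-18567198, plus strand: gccttcagccgtaaGtgtcacgcagggttc
HNRNPK, chr9:83976975-83977004, minus strand: ccgtacagacgtaaGtattaagagtttaaa
TMED2, chr12:123590440-123590469, plus strand: cacagagccagtaaGtgaatgccgtcactt
ENOSF1, chr18:678676-678705, minus strand: aggagaacaggtgaGtgacgcccccaacag

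The third set is all 7 sites with sequence at offset 8, in HNRNPH3 (an RNA-binding protein), NUP133 (a nuclear pore subunit), VPS33B (a vesicle tethering protein), DNAJC19 (a mitochondrial co-chaperone), IMPDH2 (the enzyme that commits purines to guanine nucleotides), PFN2 (a profilin) and NMT1 (an enzyme that attaches myristate to proteins). The introns of PFN2 and NMT1 do not open with GTAAGT, as those of the other 5 do, and that of NMT1 opens with GC.
HNRNPH3, chr10:68341300-68341329, plus strand: aataacatgcgtaagtgGtgtctttggcac
NUP133, chr1:229449106-229449135, minus strand: agagagataagtaagtgCtcgtggcattgc
VPS33B, chr15:91006632-91006661, minus strand: atcaagtgtggtaagtgCtatggtcctctg
DNAJC19, chr3:180985906-180985935, minus strand: cctgacaaaggtaagtaGtcattaaattct
IMPDH2, chr3:49026940-49026969, minus strand: agcaagaagggtaagtcCtagagctgggaa
PFN2, chr3:149966160-149966189, minus strand: acctgaggaggtctgatGtgtaagcagcct
NMT1, chr17:45099504-45099533, plus strand: actgccagaggccagtgCtgccccgggtgg

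The fourth set lies upstream of the donor, inside exons, and was listed in 3 or 4 of the tables: FKBP4 (a co-chaperone of HSP90), RPL28 (a ribosomal protein) and SRSF6 (a splicing activator).
FKBP4, chr12:2800533-2800562, plus strand: ctgaaactacaggcCttctctgctgccatt
RPL28, chr19:55388013-55388042, plus strand: atccgcaagaacaaGtaccgccccgacctg
SRSF6, chr20:43460549-43460578, plus strand: cgcaggagcagccgCagtagatctcgaagt

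In each of the lines above the listed base is C or G, and this held for nearly all sites whose sequence could be read. On the exon side the listed base was C or G at 97.3%, 95.9%, 97.3% and 97.8% of sites in sarkosyl replicates 1 and 2 and sarkosyl-free replicates 1 and 2. The base after it was C or G at only 13.99%, 19.4%, 12.4% and 8.94%, so that most sites read C or G followed by A or T. The tables differed in which of the bases they listed. The share of C was 82.2% and 83.4% with sarkosyl but 47.2% and 19.2% in the sarkosyl-free replicates 1 and 2, and the share of G was 15.1%, 12.4%, 50.2% and 78.6%. Exon sites away from splice sites had nearly the same shares of C, 82.9%, 81.5%, 52.3% and 19.4%. Over the exon ends of all donors of the same genes, 22.7% of bases were C and 24.97% were G. The base therefore moved with the buffer and with the sarkosyl-free replicate, and its part in the results below was not tested except where values for a single base are given.

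The sarkosyl and sarkosyl-free tables differ across all genes too. Over all rows the median pausing times of the sarkosyl tables were 1.49 and 1.34 and those without sarkosyl 2.23 and 8.00, so levels are compared only within a table. Read numbers per site are not known. On the exon and intron sides together the ratio of upper to lower quartile of a site's fitted rate had a median of 2.90, 3.57, 3.51 and 2.18. Of 9 genes that mark HEK293, kidney or neural cells, 4, 4, 6 and 5 had a site anywhere on their strand, among them KRT8 and VIM in every table, while PAX2 and PAX8 had none. Of 9 blood cell genes, 1 had a site in sarkosyl replicate 2 (PTPRC) and none in the other tables. No batch is named in the labels. Any batch that runs along with the buffer and the buffer itself cannot be told apart.

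The exon side held more sites than the intron side. Of the 1210 positions, 722 lay on the exon side and 488 on the intron side, and 680 of the exon-side positions (94.2%) were in coding sequence. The exon-side share was 58.5% and 59.8% with sarkosyl, against 62.0% and 57.5% without, where the exon side makes up 50.5% of the bases of the window. The means were 59.1% ± 0.890 and 59.7% ± 3.16 (SD, n = 2 tables each), and the buffers did not differ beyond the spread between tables (two-sided exact permutation test, p = 1). Bases that read C or G followed by A or T were divided almost evenly, with 51.3% on the exon side. For C alone it was 53.9% and for G alone 48.5%. The intron side of this count rests on fewer donors with sequence, 1192 at offset 50 beside 9035 at offset -50. With each site counted at its nearer splice site, the 50 bp that end the exon held 145, 193, 298 and 183 sites and the first 50 bp of the intron held 105, 132, 186 and 136. The next 50 bp of the intron held 67, 96, 127 and 60, and the 50 bp after those held 83, 92, 153 and 94. The end of the exon thus held more sites in each table than any of these stretches of intron. The exon held more at acceptors too, with 214, 282, 457 and 277 sites in its first 50 bp and 128, 176, 240 and 181 in the last 50 bp of the intron. Of the exon-side positions, 5 lay upstream of every annotated exon that ends at their donor, because that exon is shorter than the window.

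At the junction itself, offset 0 held 3 sites in each of the 4 tables and offset -1 held 1, 1, 3 and 1, beside 2.90, 3.84, 5.94 and 3.61 sites per base over the exon side. The first intron base held 7, 7, 9 and 16 sites, while the second held 0, 0, 1 and 0 and the third 1, 0, 3 and 3. Across donors with sequence, the last exon base was a C or G followed by A or T at 1.15%, the first intron base at 94.8%, the second at 2.80% and the third at 27.2%, beside a mean of 26.4% over the window. Over the first 3 intron bases no table had counts against the order of these shares. Offset 0, with the lowest share, still held 3 sites in each table. The first intron base was G at 97.1% of these donors.

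A stretch just inside the intron was listed more often in the sarkosyl-free tables. Offsets 5 to 9, a range chosen after the counts were seen, held 11 and 15 sites with sarkosyl and 52 and 41 without it. These are 4.35% and 4.57% of the sites near donors with sarkosyl and 10.6% and 12.8% without it, and the buffers did not overlap. The means were 4.46% ± 0.159 and 11.7% ± 1.54 (SD, n = 2 tables each). In a two-sided exact permutation test p was 0.33, which is the smallest value for 2 tables against 2. The stretch makes up 4.95% of the bases of the window, and it holds 4.04% of the window's C followed by A or T and 6.68% of its G followed by A or T, counted over donors with sequence. The share with sarkosyl was thus close to what those bases offer, and the sarkosyl-free shares were above it for either base. Its counts in the single sarkosyl-free tables differed by offset. Offset 5 held 9 sites in replicate 1 and 19 in replicate 2, against 2 and 1 with sarkosyl, and offset 8 held 25 and 11, against 5 and 9. At offset 5 all 8 positions whose base could be read were G, and at offset 8, 4 were C and 3 were G.

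**Figure D1:**
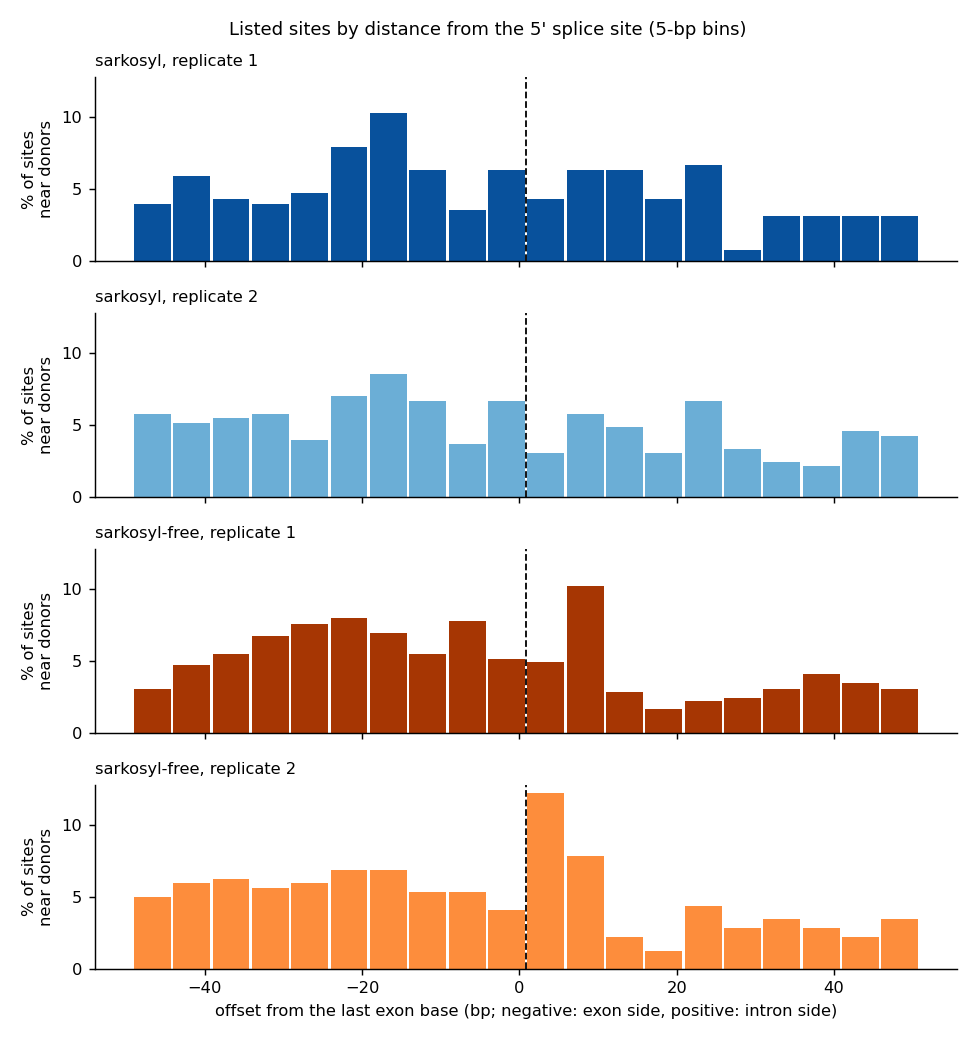
Share of the sites near donors (vertical axis, %) in 5-bp bins of offset from the last exon base (horizontal axis, bp), 1 panel per table; the dashed line is the exon-intron junction. The bins from 1 to 5 and 6 to 10 hold 4.35% and 6.32% of sites in sarkosyl replicate 1, 3.05% and 5.79% in sarkosyl replicate 2, 4.91% and 10.2% in sarkosyl-free replicate 1, then 12.2% and 7.81% in sarkosyl-free replicate 2.

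The 105 positions of this stretch came from many genes. They lay at 103 donors of 100 genes, and 87 were listed without sarkosyl and 22 with it, 4 of them in both. Of the 52 and 41 in sarkosyl-free replicates 1 and 2, 6 were in both, in IQGAP3, HNRNPH3, KAT7, SAFB, FAM208A and PTP4A1. Among all sites near donors, 51 positions were in both of these tables, which listed 489 and 320. The sarkosyl tables listed 253 and 328. HNRNPH3, shown above, had pausing times of 7.04 and 27.8 in sarkosyl-free replicates 1 and 2. SAFB, a nuclear matrix-binding protein, had 0.864 and 5.43, and IQGAP3, a scaffold of the cytoskeleton, had 23.3 and 4.55. All 6 but IQGAP3 were higher in replicate 2, as was the table as a whole. Over the stretch the median log2 pausing times were 0.91 and 0.31 for the sarkosyl tables and 1.48 and 3.24 for the others, beside 1.16, 0.69, 1.20 and 3.12 over all sites near donors. At offsets 11 to 50 the shares went the other way, while the counts of the buffers overlapped. These offsets held 78 and 103 sites with sarkosyl and 112 and 72 without it. That is 30.8% and 31.4% of the sites with sarkosyl and 22.9% and 22.5% without it (exact permutation p = 0.33). Those offsets make up 39.6% of the bases. The shares of a table are not independent, since a higher share in 1 stretch lowers the others.

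Pausing times near donors covered a wide range in every table. The median was 2.24 and 1.61 with sarkosyl, against 2.30 and 8.70 without, as deposited. The lowest and highest values were 0.508 and 62.5 in sarkosyl replicate 1, 0.665 and 71.4 in sarkosyl replicate 2, 0.193 and 66.7 in sarkosyl-free replicate 1 and 0.230 and 125 in sarkosyl-free replicate 2. Placed among all rows of its own table, the median of the sites near donors stood at percentiles 63.7 and 61.3 in the sarkosyl tables, against 50.6 and 52.2 in the other pair. The sites thus stood above the middle of the sarkosyl tables and near the middle of the others. Other gene-body sites also stood above the middle of the sarkosyl tables. Sites near acceptors were at 63.1 and 59.9, exon sites away from splice sites at 59.1 and 59.1, and intron sites over 500 bp from one at 54.0 and 57.3. In the sarkosyl-free tables these classes were at 56.5 and 59.3, 56.8 and 55.8, and 51.1 and 56.6.

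Set against other gene-body sites, those near donors paused about as long or slightly longer in the sarkosyl tables and for shorter in the sarkosyl-free tables. Against exon sites over 50 bp from any splice site, the difference of median log2 pausing time was 0.22 and 0.06 with sarkosyl, against -0.39 and -0.19 without. Against sites near acceptors, the other end of the intron, it was 0.03 and 0.03 with sarkosyl, against -0.37 and -0.36 without. Against deep intron sites, over 500 bp from any splice site, it was 0.43 and 0.10 with sarkosyl, against -0.03 and -0.23 without. In each of these comparisons both sarkosyl tables were above 0 and both sarkosyl-free tables below it.

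**Figure D2:**
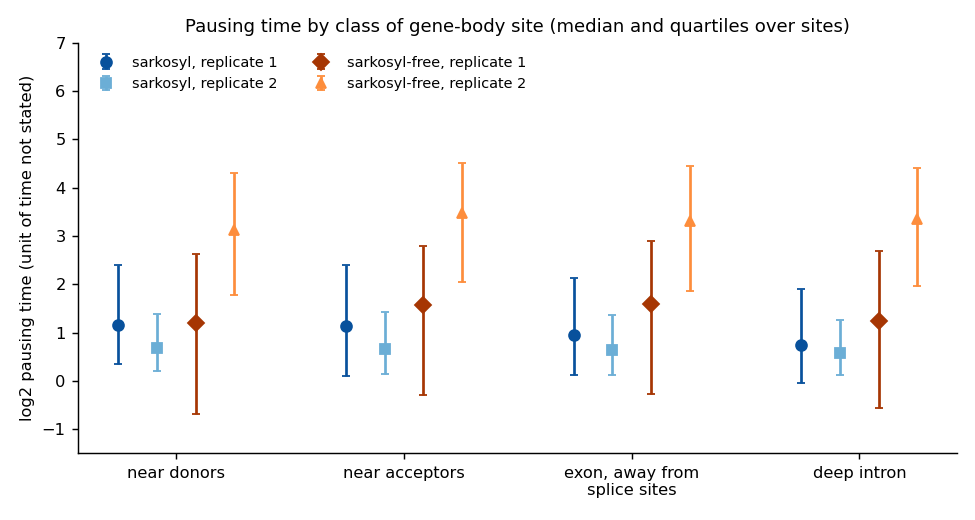
Median log2 pausing time (points) with the quartiles over sites (bars) for sites near donors, near acceptors, in exons away from splice sites and deep in introns, with 1 colour per table; the unit of time is not stated. The medians near donors are 1.16, 0.69, 1.20 and 3.12 and the quartile bars of all classes of a table overlap.

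The size of those differences was tested over tables. Against exon sites the mean difference was 0.14 ± 0.12 with sarkosyl and -0.29 ± 0.14 without it (SD, n = 2 tables each). Against sites near acceptors it was 0.03 ± 0.00173 and -0.36 ± 0.00465, and against deep intron sites 0.27 ± 0.23 and -0.13 ± 0.14. The buffers differed by 0.43, 0.40 and 0.40, each with an exact permutation p of 0.33 (two-sided), the smallest this design can give. When only the 50% of sites with the narrowest fitted rates was used, the sarkosyl-free differences shrank to -0.04 against exon sites, -0.07 against sites near acceptors and 6.24e-05 against deep intron sites. The sarkosyl difference from acceptors changed sign under 4 alternatives, such as -0.02 in a window of 100 bp. Within genes that held both classes, the difference from acceptors was 0.25 over 48 genes and 0.06 over 81 genes with sarkosyl, and 0.01 over 102 genes and -0.80 over 67 genes without it, so the sarkosyl-free tables differed there.

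**Figure D3:**
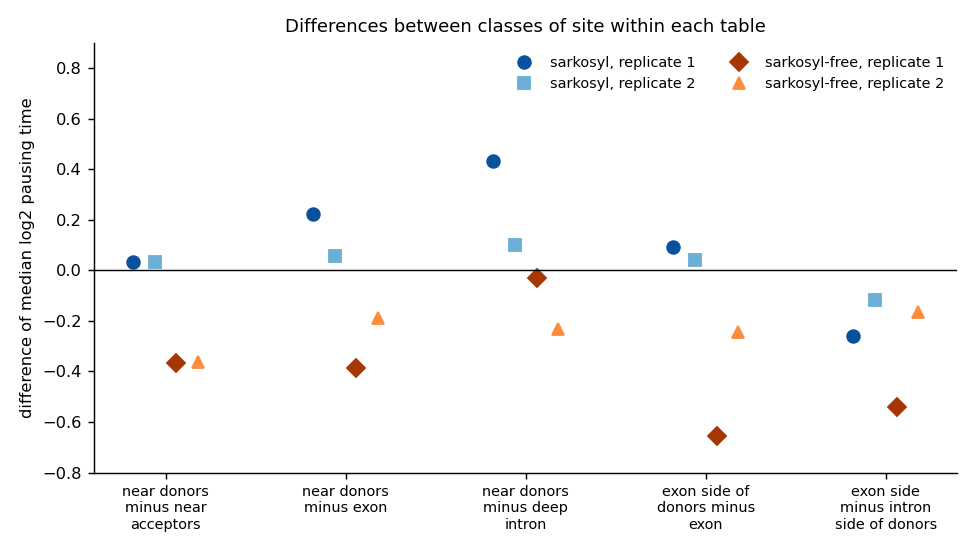
Difference of median log2 pausing time (vertical axis) between classes of site, 1 point per table. In the 4 comparisons with other classes drawn here the sarkosyl points lie above 0 and the sarkosyl-free points below it, and in the comparison of the exon side with the intron side all 4 points lie below 0.

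The exon side of the donor had the shorter times in all 4 tables. On the exon side the medians on the log2 scale were 1.04 and 0.67 for the sarkosyl tables and 0.93 and 3.07 for the sarkosyl-free ones, and on the intron side 1.29, 0.79, 1.47 and 3.23. The difference was -0.26 and -0.12 with sarkosyl, against -0.54 and -0.17 without, with means of -0.19 ± 0.10 and -0.35 ± 0.27 (SD, n = 2 tables each). The buffers did not differ beyond the spread between tables (exact permutation p = 0.67). Without positions listed in over 1 table the sarkosyl mean was 0.01. By position, the exon bases from -29 to -20 and from -19 to -10 had the lowest medians of sarkosyl-free replicate 1, at -0.73 and -0.84 from the median of its sites near donors on the log2 scale. The bin from -29 to -20 was below the median of its table in all 4 tables, at -0.26 and -0.31 with sarkosyl and -0.73 and -0.23 in its absence. It held 32, 36, 76 and 41 sites. The bin from 1 to 10 was above the median in all 4 tables, at 0.11 and 0.13 with sarkosyl and 0.12 and 0.39 in its absence. Bins are named here after all their values were seen. The bin from -19 to -10 was -0.35 in sarkosyl replicate 1 and -0.42 in sarkosyl-free replicate 2 but 0.39 in sarkosyl replicate 2.

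The comparison with exon sites could be made for a single listed base, because exon sequence was known. For sites on C, the exon side of donors minus exon sites away from splice sites was 0.14 and 0.08 with sarkosyl, against -0.69 and -0.43 without. For sites on G it was -0.17 and -0.37 with sarkosyl, from 22 and 24 sites near donors, and -0.44 and -0.19 without it. Over both bases it was 0.09 and 0.04 with sarkosyl, against -0.66 and -0.24 without. The sarkosyl-free tables were thus below 0 for either base, and the sign in the sarkosyl tables depended on the base. Sites on G had longer times than sites on C in 3 of the 4 tables on the exon side of donors. For exon sites away from splice sites this held in all 4 tables. Their medians on G and C were 1.57 and 0.77 in sarkosyl replicate 1 and 0.82 and 0.61 in sarkosyl replicate 2. Without sarkosyl they were 1.98 and 1.26 in replicate 1 and 3.46 and 2.29 in replicate 2. On the exon side of donors the medians on G and C were 1.41 and 0.91 in sarkosyl replicate 1, 0.45 and 0.69 in sarkosyl replicate 2, 1.54 and 0.57 in sarkosyl-free replicate 1 and 3.27 and 1.86 in sarkosyl-free replicate 2. On the intron side the sign was not divided by buffer in this way. Sites on the intron side of donors minus deep intron sites gave 0.56 and 0.20 with sarkosyl, and 0.24 in sarkosyl-free replicate 1 but -0.12 in replicate 2 (exact permutation p = 0.67). For the intron side and the deep intron the base was known at too few sites to separate it.

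Few positions were listed more than once. Of the 1210 positions, 1059 were in 1 table, 127 in 2, 19 in 3 and 5 in all 4. The sarkosyl tables shared 79 positions near donors, 31.2% of replicate 1 and 24.1% of replicate 2, and the sarkosyl-free tables shared 51, 10.4% and 15.9%. Over those shared positions Spearman's rho between replicates was 0.58 with sarkosyl and 0.25 without it, as a description across sites of the same libraries. Exon sites away from splice sites gave 0.60 over 875 positions and 0.38 over 897. The median difference between replicates, after centring each table, was 1.02 on the log2 scale with sarkosyl and 1.65 without it. Between buffers 14 to 25 positions were shared by any pair of tables. Counted by donor, 91 were shared by the sarkosyl tables and 72 by the sarkosyl-free tables. A shared position brings its donor with it, and a donor covers 50 bp either side. Whether sites recur at the same donors was therefore not tested by these counts.

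**Figure D4:**
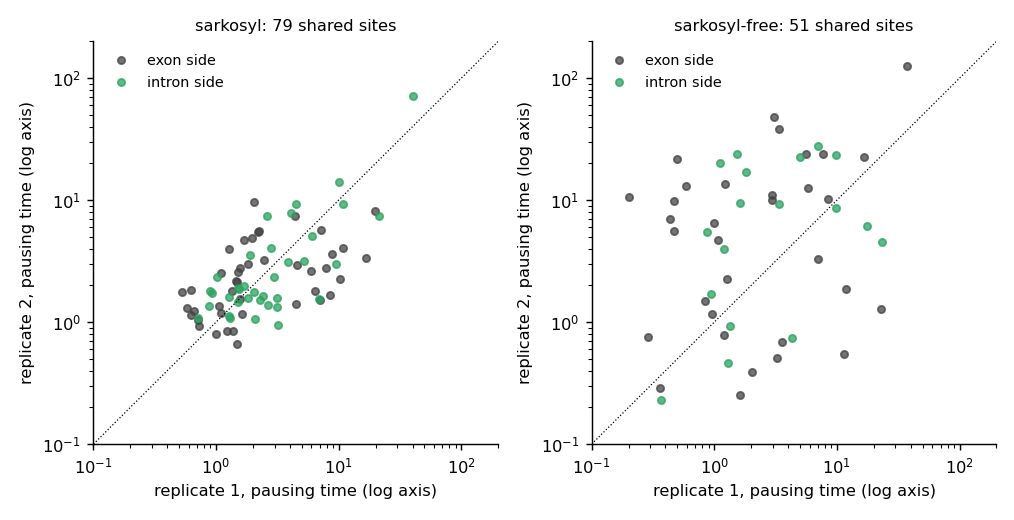
Pausing time in replicate 1 (horizontal, log axis) and replicate 2 (vertical, log axis) for the positions near donors that both tables of a buffer list, 79 with sarkosyl (left) and 51 without (right); the dotted line marks equal values. The sarkosyl points follow the line (rho 0.58) and the sarkosyl-free points scatter more widely (rho 0.25).

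The 5 positions in all 4 tables were compared between buffers at single-site level. They belong to FKBP4, AGBL5, ADAMTS1, EIF3D and HNRNPA2B1. In limma's test over all 2967 sites listed in all 4 tables, with Benjamini-Hochberg adjustment at 0.05, none of the 5 was called, beside 0% of all sites. In simulated data with the median replicate spread, the test recovered 18 of 200 sites changed by 2 on the log2 scale. Most changes of that size would thus be missed. At an unadjusted p under 0.05, 1 of the 5 passed, beside 23.2% of all sites. The centred values of the buffers did not overlap at 1 of the 5, beside 57.3% of all sites.

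That site was in ADAMTS1, a secreted metalloprotease, on the intron side at offset 10 (chr21, minus strand, position 26841848). Its pausing time was 4.50 and 9.35 with sarkosyl, against 0.366 and 0.230 without. The sarkosyl values were the higher ones and the buffers did not overlap. The centred log2 difference was 4.62 with an SE of 0.80, and limma's adjusted p was 0.155 (unadjusted 0.0013). It was called after quantile normalization of the tables and with the replicate number as a replicate block. It was not called with no centring, with trend and robust variance, or without rates at or under 0.02. With 1 table left out, it was called without either sarkosyl-free table but not without either sarkosyl table. Without sarkosyl-free replicate 1, limma called 1597 sites in all and 3 of the 5 near donors, in FKBP4, ADAMTS1 and EIF3D. Without sarkosyl-free replicate 2 it called 660 and 2, in ADAMTS1 and HNRNPA2B1. In both of these fits the lone sarkosyl-free table is assumed to vary like the sarkosyl tables.

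At the other 4 positions the centred values of the buffers overlapped. FKBP4, at offset -30 in its coding sequence, had 4.50 and 1.41 with sarkosyl and 1.62 and 0.254 without it. HNRNPA2B1, an RNA-binding protein, at offset -47, had 5.99 and 2.64 with sarkosyl and 0.439 and 6.94 without it, so that the sarkosyl-free values lay on either side of the others. EIF3D, a subunit of a translation initiation factor, had 2.26 and 1.52 with sarkosyl and 1.82 and 16.9 without it at offset 46 (chr22, minus strand, position 36525953). AGBL5, a carboxypeptidase that acts on tubulin, had 1.23, 0.845, 0.966 and 1.17 at offset -25, and is 1 of the positions upstream of a short exon. Their limma adjusted p-values ran from 0.328 to 0.960.

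Among the 24 positions in 3 or 4 tables, 16 were on the exon side. After each table was centred on its sites near donors, the highest and lowest value of such a position differed by a median of 3.20 on the log2 scale, from 0.26 to 7.78. The closest values were those of SRCAP, a chromatin remodelling ATPase, at offset 8, with 2.05 and 1.77 with sarkosyl and 8.00 in sarkosyl-free replicate 2. RPL28, shown above at offset -21, had 8.13 in sarkosyl replicate 1 and 8.47 and 10.2 without sarkosyl. SRSF6 at offset -35 had 1.06 and 1.36 with sarkosyl and 16.7 in sarkosyl-free replicate 1. The position at the widest end of this range was the ADAMTS1 site.

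The positions with the longest and shortest times in both tables of a buffer were named after their values were seen, and they are descriptions. With sarkosyl the longest was in the fifth exon's donor of EIF3D, at offset 11 (chr22, minus strand, position 36523884), with 40.0 and 71.4. AFDN, a protein of cell junctions, followed at offset -15 with 19.6 and 8.13, then CSE1L, a nuclear export receptor, at offset 4 with 21.3 and 7.41. The shortest with sarkosyl were on the exon side in ACAT2, P3H1, PSMD8 and KRT8, each between 0.576 and 1.31. Without sarkosyl the longest was in RPS15A, a ribosomal protein, at offset -21 (chr16, minus strand, position 18788084), with 37.0 and 125. CCT2, a chaperonin subunit, had 16.7 and 22.7 at offset -33, and FAM208A, a gene silencing factor, had 9.80 and 23.3 at offset 8. The shortest without sarkosyl were in ADAMTS1, PAGR1, SDHB and FKBP4, where PAGR1 had 0.358 and 0.289 and SDHB, a subunit of succinate dehydrogenase, had 0.287 and 0.752. None of RPS15A, CCT2 and FAM208A was listed at that position with sarkosyl.

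Most genes contributed 1 position. This held for 653 of the 857 genes, and 939 of the 1059 donors had 1. The genes with most were CSE1L with 10 positions at 7 donors, HSP90AB1, a cytosolic chaperone, with 10 at 6, ENO1, a glycolytic enzyme, with 8 at 4, SFPQ, an RNA-binding splicing factor, with 8 at 2, and PRKDC, the catalytic subunit of the DNA-dependent kinase, with 8 at 6. In HSP90AB1, 6 positions were in sarkosyl replicate 1, 3 in sarkosyl replicate 2, and 3 and 1 in the sarkosyl-free tables. In CSE1L the order was the other way, with 1 and 2 in the sarkosyl tables and 4 in each of the others.

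The donor with most positions was that of the third exon of SFPQ (chr1, minus strand, last exon base 35190694), with 6 between offsets -39 and 8, none of them in over 1 table. The donor of the second exon of SRSF7 (chr2, minus strand, 38750014), a splicing activator, had 5, all on the exon side. At offset -13 SRSF7 had 7.75 and 23.8 without sarkosyl, and its sarkosyl positions at offsets -12 and -39 had 1.08 and 0.782. Donors of ENO1, RPL10A and EIF3D had 4 positions each.

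The donors that had a site were close to the other donors of their genes in exon length and in the base that ends the exon. The exon before a listed donor had a median length of 121 bp, beside 123 bp over all 9388 donors of the same genes that were far enough from a start, and the intron after it 1183 bp, beside 1234 bp. The median exon rank was 5 for the listed donors, whose transcripts had a median of 13 exons, and 7 for all donors, with a median of 21 exons. These medians are over donors, so a gene with many exons counts more often among all donors. Rank and exon number were not compared within genes, and these medians do not show that listed donors lie earlier in a gene. The last exon base was G at 79.5% of both sets. Among donors whose first intron bases could be read, 213 of the 1059, GT opened 95.8% of introns, beside 94.0% of 1310 donors of the same genes. GTAAGT, the letters that pair fully with U1 RNA in the intron, opened 38 (17.8%), beside 11.8%, and GTGAGT opened 8.92%, beside 10.2%. The letters were searched at the intron start on the transcribed strand only, and these donors are not a sample of all, since each has a transcript that keeps the intron start.

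Genes of the splicing and elongation machinery were counted from lists. Of all 17699 protein-coding genes with a donor, 4.84% had a listed site beside one. Among U1 particle genes it was 2 of 8, LUC7L3 and PRPF39, both in sarkosyl-free replicate 1 alone, with 3.36 and 0.264. Among SR protein genes, which encode splicing activators, it was 4 of 12, SRSF3, SRSF6, SRSF7 and SRSF10, with 9 positions. Among hnRNP genes, whose products bind nascent RNA, it was 8 of 22 with 17 positions, and HNRNPL alone had 6, all of them in sarkosyl replicate 1 and 1 also in sarkosyl replicate 2. Cytosolic ribosomal protein genes gave 21 of 82 with 47 positions, and 20 elongation factor genes gave 3, CDK12, NELFB and NELFCD. Replication-dependent histone genes, most of which have no intron, gave 0 of the 9 that have a donor in any transcript. Expression of the genes was not measured here, so these shares cannot be told apart from how much each gene is transcribed.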

How the data were processed

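Run-on sequencing of HEK293 cells was analysed from the 4 deposited tables, 1 per buffer and replicate number, and each table was taken to cover 4 run-on times, going by table names and sample titles. Per the file headers, each row gives the mean, SD, Monte Carlo error, quartiles and median of a fitted estimate and a pausing time, used here as scores that the authors deposited. The deposited pausing time equalled the reciprocal of the median, called the rate here, which is rounded to 3 decimals. Cutadapt 1.14, HISAT2 2.1.0, SAMtools, bedtools and hg38 are named in the submitters' processing notes, with no role. The model, its prior, the rule that lists a site and the unit of time are not given in the sources used here. The tables hold no read numbers, so depth is unknown, and no value column was left unmapped (0 columns).

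Positions were read as counted from 1, which the files do not state, and placed on GENCODE release 29. Values were analysed as log2 of the deposited pausing time in scipy 1.17.1, pandas 2.3.3 and numpy 2.4.6 under Python 3.11.15, with plots by matplotlib 3.10.9. Classes of site were compared by the difference of their medians within a table, with mean and SD over the 2 tables of a buffer and a two-sided exact permutation test between buffers. Sites of 1 table share its libraries and are not replicates. The series text calls the samples biological duplicates, and p-values measure only the spread between the tables. Single sites were tested with limma 3.58.1 in R 4.3.3 on log2 values centred on each table's median over the 2967 sites in all 4 tables, with no covariate and no low-value filter, and the step was tested on simulated data. No genome sequence was used; bases were read from GENCODE transcripts, so the intron side was known at few sites.

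Sites named singly were the 5 listed in all 4 tables, and genes and donors those with most positions, ties in chromosome order. Other named sites were chosen after their values were seen. Of the genes and donors this covers, 1 is not reported here. The members, gene lists and tests were chosen with earlier results of these data known. Alternatives covered the window, the distance from a start, the transcripts used for starts, the position base, the summary, 1 value per donor, isolated or more certain sites, differences within genes, the intron class, and for limma the scaling, a filter, the prior, a replicate block and each table left out. Alternatives by listed base and without positions in over 1 table were added after seeing the data.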

Additional observations from a re-analysis of the deposited data

Results flagged for a closer look

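Near donors, 4 differences of median log2 pausing time had opposite signs in the buffers, with both sarkosyl tables above 0 and both sarkosyl-free tables below it. The sarkosyl mean exceeded the sarkosyl-free mean by 0.40 for sites near donors minus sites near acceptors, by 0.43 minus exon sites and by 0.40 minus deep intron sites. For the exon side of donors minus exon sites it was 0.52, from 0.07 ± 0.04 with sarkosyl and -0.45 ± 0.29 without it (SD, n = 2 tables each). A further difference, the intron side of donors minus deep intron sites, did not have opposite signs: the sarkosyl tables gave 0.56 and 0.20 and the others gave 0.24 and -0.12. In each of the first 4 the exact permutation test gave p = 0.33, the smallest that 2 tables against 2 can give, so no difference between buffers was called. The comparisons share the same sites near donors and are not independent. The share of listed bases that were C moved with the buffer and its part was not tested beyond the values for single bases.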

How the results depend on the processing

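Of 176 alternative values for 16 results, 125 stayed near the reported value, 42 moved by more than the spread between replicates or by over 1.5 times in a count, and 9 changed sign. Sites near donors minus sites near acceptors moved most often, and their spread between tables was very small. All values below are differences of median log2 pausing time or shares in percent, and no cause was tested. The sarkosyl value of donors minus acceptors, 0.03 as reported, was 0.0303 in a window of 25 bp, -0.0154 in one of 100 bp, 0.00984 with starts of protein-coding transcripts only, -0.0559 at over 2000 bp from a start, 0.0277 with positions counted from 0, 0.0412 with means, -0.0244 with 1 value per donor, -0.0528 with isolated sites, 0.0896 in the more certain 50% of sites, 0.155 within genes and 0.0949 without positions in over 1 table. The sarkosyl-free value, -0.36 as reported, was -0.466 at 25 bp, -0.269 at 100 bp, -0.386 at over 2000 bp, -0.355 with positions counted from 0, -0.236 with means, -0.443 with 1 value per donor, -0.499 with isolated sites, -0.0723 in the more certain 50%, -0.397 within genes and -0.250 without positions in over 1 table.

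In the more certain 50% the sarkosyl-free value was -0.0367 against exon sites, 6.24e-05 against deep intron sites and -0.152 for the exon side of donors against exon sites. That last comparison with sarkosyl was 0.0181 with protein-coding starts, -0.0159 at over 2000 bp, -0.0141 with isolated sites, 0.111 on C only and -0.267 on G only. The exon side minus the intron side of donors was -0.0138 with sarkosyl in a window of 100 bp, -0.0683 with and -0.690 without sarkosyl at over 2000 bp, and 0.0119 with sarkosyl without positions in over 1 table.

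The exon-side share with sarkosyl was 57.4% in a window of 25 bp, 60.3% with protein-coding starts, 60.1% without positions in over 1 table and 54.4% over sites in both replicates, where the sarkosyl-free share was 64.7%. The share at offsets 5 to 9 was 7.43% and 20.3% of sites in a window of 25 bp with and without sarkosyl. The same stretch is a larger part of that narrower window, so these shares had to rise and do not show a stronger difference. With sarkosyl the share at offsets 5 to 9 was 4.81% with protein-coding starts, 6.04% with positions counted from 0 and 5.06% over sites in both replicates.

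Leaving out a table gave the value of the other table of its buffer for the differences and shares, and none of these changed sign. limma called 0 of 2967 sites as reported, and 0 with no centring, with trend and robust variance, or without rates at or under 0.02. It called 158 sites, 1 of them near a donor, after quantile normalization. With each table left out in turn it called between 0 and 1597 sites, and between 0 and 3 near donors, with the lone table assumed to vary like the others. With the replicate number as a replicate block limma called 161 sites, 1 of them near a donor (ADAMTS1). The replicate differences of the buffers had a correlation of 0.0134 across the 2967 sites. That value cannot tell whether replicates of the same number were prepared together, which the labels do not state. Unknown depth and wide fitted rates limit single sites, and 2 tables per buffer limit every comparison of buffers.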
